A study of Mus musculus with 4 samples.

Results

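Lysozymes and ribonucleases of the RNase A family are secreted enzymes. Paneth cells, the granule-filled cells of the crypt floor in the small intestine, store and release some of them. The 6 genes Lyz1, Lyz2, Ang, Ang4, Rnase1 and Rnase4 were followed on every probe set that the platform annotation names after them, a probe set being a group of short probes that reads the same transcript. Of 18193 genes with a probe set of their own on the array, these 6 had 11 of 45037 probe sets, of which 3 belonged to Lyz1, 1 to Lyz2, 3 to Ang, 2 to Ang4, 1 to Rnase1 and 1 to Rnase4, and none carried several gene symbols. All 11 were bright enough to be tested.

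The cells were laser-captured from mice on a mixed C57BL/6 and 129ola background, and each of 4 arrays held total RNA that had been amplified and labelled with biotin. The Atg16-hypomorph group had 2 arrays and the wildtype group 2 arrays. A hypomorph carries an allele of reduced function, here of Atg16l1, which is needed to form autophagosomes, the vesicles that carry cell contents to the lysosome. The labels give neither the age nor the sex of the mice, nor the kind of allele, and they do not say how many animals stand behind a group. The p-values therefore cover the spread between these arrays and no more, and that spread may be technical.

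Lysozyme cleaves the peptidoglycan wall of bacteria. The mouse has 2 adjacent lysozyme genes that encode closely related proteins, Lyz1, the Paneth cell form, and Lyz2, the form of macrophages and other myeloid cells. Enzymes of the RNase A family cut RNA and share a fold. Ang encodes angiogenin, which promotes blood vessel growth and cuts tRNA in stressed cells, and Ang4 is a mouse angiogenin of Paneth cell granules that kills gut microbes. Rnase1 is the pancreatic-type ribonuclease and Rnase4 a ribonuclease that prefers to cut after uridine.

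Lyz1 and Lyz2 lie next to each other on chromosome 10, and the 4 ribonuclease genes lie on chromosome 14. The DNA before their start sites is shown because it holds likenesses within the family that bear on the comparisons below, a close pair in the lysozymes and a start shared by Ang and Rnase4. RefSeq (build GRCm38.p6) supplied a window for each of the 6 genes, and the 250 bases before the start site are given 5′ to 3′ on the strand of the gene. The lysozyme windows, Lyz1 at chr10:117292869-117293118 and Lyz2 at chr10:117282273-117282522, both on the minus strand, were compared position by position without gaps. Capitals mark the stretch next to the start site that is the same in both.
Lyz1: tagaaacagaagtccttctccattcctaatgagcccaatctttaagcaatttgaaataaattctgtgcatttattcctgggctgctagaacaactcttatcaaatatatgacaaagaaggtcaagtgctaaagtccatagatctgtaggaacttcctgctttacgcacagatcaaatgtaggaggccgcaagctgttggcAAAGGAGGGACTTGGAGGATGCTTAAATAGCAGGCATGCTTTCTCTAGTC
Lyz2: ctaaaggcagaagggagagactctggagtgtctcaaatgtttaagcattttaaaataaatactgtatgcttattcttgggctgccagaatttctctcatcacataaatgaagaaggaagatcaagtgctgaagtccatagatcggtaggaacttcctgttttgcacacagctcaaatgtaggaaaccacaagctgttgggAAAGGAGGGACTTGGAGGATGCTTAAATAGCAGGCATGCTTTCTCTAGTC
The capitals cover 50 bases, and 92 of the 100 bases nearest the start site were identical. Of the 150 bases farther away 60 were identical at the same position, so the likeness without gaps was concentrated near the start.

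Ang and Rnase4 had the same window, chr14:51090827-51091076 on the plus strand, since RefSeq starts transcripts of both genes at the same base. Of 27025 genes in the promoter table, 67 (0.248%) shared a window with another gene. Rnase4 had another window of its own at chr14:51095750-51095999, also on the plus strand, and that of Ang4 was chr14:51773591-51773840 on the minus strand. Capitals mark the letters TATATA, a form of the TATA box that helps to place the start of transcription.
Ang and Rnase4, shared: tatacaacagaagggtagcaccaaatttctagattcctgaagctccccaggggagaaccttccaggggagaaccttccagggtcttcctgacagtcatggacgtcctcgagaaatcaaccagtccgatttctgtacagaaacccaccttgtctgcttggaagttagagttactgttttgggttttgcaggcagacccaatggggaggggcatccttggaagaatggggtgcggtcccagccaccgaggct
Rnase4, second window: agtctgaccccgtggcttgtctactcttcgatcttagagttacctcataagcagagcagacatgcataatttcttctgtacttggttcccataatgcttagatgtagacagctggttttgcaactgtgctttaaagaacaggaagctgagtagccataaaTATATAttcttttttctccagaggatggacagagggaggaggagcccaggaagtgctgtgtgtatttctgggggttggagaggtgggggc
Ang4: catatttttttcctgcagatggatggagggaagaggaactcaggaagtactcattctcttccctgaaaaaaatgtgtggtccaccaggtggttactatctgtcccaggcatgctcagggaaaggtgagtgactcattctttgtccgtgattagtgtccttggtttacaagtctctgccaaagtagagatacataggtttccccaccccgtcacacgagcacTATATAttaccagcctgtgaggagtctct
TATATA began 29 bases before the Ang4 start and 90 bases before the second Rnase4 start, and was found in 5.25% of 32817 windows of the same length. It reads the same on the other strand. The letters TATAAA, the E-box CACGTG and the TCF/LEF letters CTTTGAA and CTTTGAT, searched on both strands, were in none of the 6 distinct windows of these genes, and in 12.4%, 6.02%, 4.46% and 3.21% of all windows. TATAAA and TATATA can overlap in a longer TATA stretch. These motifs were chosen after the sequences had been seen, and a match describes letters and not a site in use.

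Array medians over non-control probe sets were 47.2 and 49.5 in hypomorph and 48.4 and 47.7 in wildtype. Atg16l1 measured 966 and 995 in hypomorph and 1335 and 1183 in wildtype, and was not called (limma, adjusted p = 0.102). No source used here says where its probes lie relative to the alteration. Xist, the RNA that coats the inactive X of female cells, read 4414 and 4510 in hypomorph against 18.0 and 25.6 in wildtype, so sex and genotype cannot be told apart in any difference below. Paneth cell granule genes ranged widely in brightness. Bright on every array were Mmp7, the protease that activates defensins, at 8463 and 9486 in hypomorph and 9063 and 9314 in wildtype, and the lectin gene Itln1 at 10128 and 10459 in hypomorph and 11120 and 11016 in wildtype. The enzyme gene Pla2g2a was at 505 and 712 in hypomorph and 545 and 768 in wildtype, and the defensin gene Defa3 was too dim to test. Of the defensin genes looked for, Defa3 alone was found with a probe set of its own. The others were not read, so its dim value says nothing about defensins as a group.

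Values are deposited linear intensities. Each difference is the hypomorph mean of log2(intensity + 32) minus the wildtype mean, a scale that makes changes of dim genes look smaller. A call is a two-sided adjusted p under 0.05 in limma, adjusted with Benjamini-Hochberg over all 22519 tested probe sets. Where an array is left out, its group is a lone array, taken to vary as much as the other group does. The spread then comes from the other pair (1 residual degree of freedom) and from the spread shared across probe sets, so such a call is a weak check. Probes of the lysozyme pair, and those of the angiogenin genes, can hybridise with the transcript of a near relative, most of all in probe sets whose names end in _x_at or _s_at, so the gene behind a value is uncertain to that extent. In samples of captured tissue, fewer cells of a type and less RNA per cell cannot be told apart.

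Among the 6 genes, only Ang was called, higher in the hypomorph cells and on probe sets that can read relatives. Of the 11 probe sets 2, both of Ang, were called higher and 0 lower, against 2.04% of all tested probe sets called higher and 1.67% called lower. The remaining 9 did not pass. The median difference of the 11 was -0.021, beside -0.031 for all tested probe sets. The groups did not overlap on 9 of the 11 probe sets, and on 51.8% of all tested ones.

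**Figure D1:**
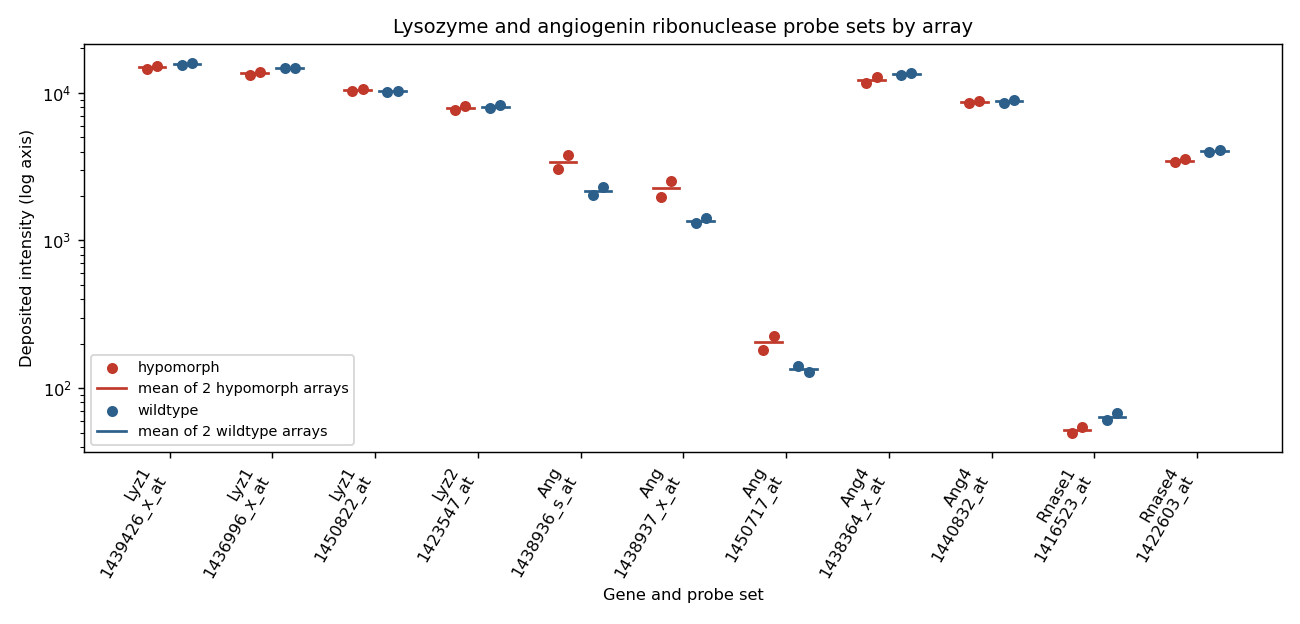
Deposited intensity (log axis) of the 11 lysozyme and ribonuclease probe sets, with a point for each array, hypomorph in red and wildtype in blue, and a line at the mean of the 2 arrays of a group. The hypomorph points lie above the wildtype points on the 3 Ang probe sets, while those of Lyz1, Lyz2 and Ang4 lie close together at 7689 or more.

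Lyz1 was very bright in both groups. Its brightest probe set, 1439426_x_at, measured 14561 and 15097 in hypomorph and 15481 and 16021 in wildtype. Both hypomorph arrays were lower and the groups did not overlap, with a mean of 14829 ± 379 in hypomorph against 15751 ± 382 in wildtype (SD, n = 2 arrays each). The difference was -0.087 (SE 0.043, 95% interval -0.18 to 0.0095) and did not pass (limma, adjusted p = 0.291). Probe set 1436996_x_at measured 13248 and 13785 in hypomorph and 14607 and 14765 in wildtype. Again both hypomorph arrays were the lower ones, at a ratio of means of 0.920, with a difference of -0.12 (SE 0.043, 95% interval -0.22 to -0.023). It was not called with all arrays (limma, adjusted p = 0.158). It passed without hypomorph replicate 2 (-0.15, adjusted p = 0.0452 in limma), where the spread comes from the wildtype pair and the shared prior.

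The probe set of Lyz1 whose name marks no family match went the other way. On 1450822_at the gene measured 10288 and 10612 in hypomorph and 10166 and 10233 in wildtype. Both hypomorph arrays were higher, by 2.46% on the means, and the difference was 0.035 (SE 0.047, 95% interval -0.070 to 0.14; limma, adjusted p = 0.725). The 3 probe sets therefore disagreed in sign, with differences of at most 0.12 in size. Intensities this high may be compressed, which was not tested. The highest value of any probe set on an array lay between 15979 and 20106. Of the 921 tested probe sets with a mean of at least 5000, 1.09% were called higher and 0.977% lower, and the middle 50% of their differences lay between -0.085 and 0.036.

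Lyz2, the myeloid lysozyme, did not separate the groups. It measured 7689 and 8190.3 in hypomorph and 7868 and 8245 in wildtype, and the arrays of the groups interleaved. The difference was -0.021 (SE 0.056, 95% interval -0.15 to 0.10; limma, adjusted p = 0.873). Its sign turned without hypomorph replicate 1 (0.024) and without wildtype replicate 2 (0.012). Lyz2 has a single probe set on the array and its signal cannot be divided between Lyz2 transcripts and cross-hybridising Lyz1 transcripts.

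Because Lyz2 is a myeloid gene, markers of macrophages and related cells were read beside it. Of 22 markers on the array 18 were tested, 1 was called higher and 0 lower, and the median difference was 0.17. Their summed intensity was 25943 and 26037 in hypomorph against 22928 and 22883 in wildtype. The marker called was Cd163, the haemoglobin scavenger receptor of resident macrophages, at 2328 and 2358 in hypomorph against 1056 and 1267 in wildtype (difference 1.00, SE 0.10; limma, adjusted p = 0.000569). It also passed in each fit with an array left out. Csf1r, the receptor for the macrophage growth factor, measured 3914 and 4538 in hypomorph and 3653 and 3510.4 in wildtype (limma, adjusted p = 0.148), and C1qc, Cd68, Aif1 and Itgam were too dim to test. Ptprc, Cd14 and C1qa went the other way, with differences of -0.26, -0.079 and -0.064, and were not called. Ptprc measured 1605 and 2033 in hypomorph and 2153 and 2200 in wildtype (limma, adjusted p = 0.216). All 10 neutrophil markers on the array were too dim to test, with summed intensities of 184 and 207 in hypomorph and 157 and 167 in wildtype. The part of myeloid RNA in the Lyz2 value was not tested.

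Ang read higher in hypomorph on all 3 of its probe sets, and 2 of them passed the test. On the brightest, 1438936_s_at, it measured 3023 and 3764 in hypomorph against 2022 and 2286 in wildtype. Both hypomorph arrays exceeded both wildtype arrays, with means of 3394 ± 524 in hypomorph and 2154 ± 187 in wildtype (SD, n = 2 each), a ratio of 1.58. The difference was 0.64 (SE 0.11, 95% interval 0.40 to 0.89; limma, adjusted p = 0.0119). Probe set 1438937_x_at measured 1975 and 2528 in hypomorph against 1311 and 1411 in wildtype. The separation was alike, at a ratio of 1.65 and a difference of 0.70 (SE 0.12, 95% interval 0.44 to 0.97; limma, adjusted p = 0.0112).

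The dim Ang probe set 1450717_at measured 182 and 227 in hypomorph and 142 and 127.6 in wildtype. The groups did not overlap and the ratio was 1.52, but the difference of 0.50 (SE 0.17, 95% interval 0.13 to 0.87) did not pass (limma, adjusted p = 0.134). It is the only Ang probe set whose name marks no family match. Both Ang calls thus rest on probe sets most open to reading relatives. Probe sets of a gene may read overlapping stretches of the same transcript, so they are not separate measurements of the rise. Hypomorph replicate 2 gave the highest value on each of the 3 probe sets. Without it the differences of the 2 called probe sets were 0.49 and 0.53. Both passed in each fit with an array left out, where a group is a lone array. Both calls were lost when dim probe sets were kept in the fit (adjusted p = 0.0833 and 0.0772 in limma) and when the spread was not modelled on intensity (adjusted p = 0.111 and 0.0971).

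**Figure D2:**
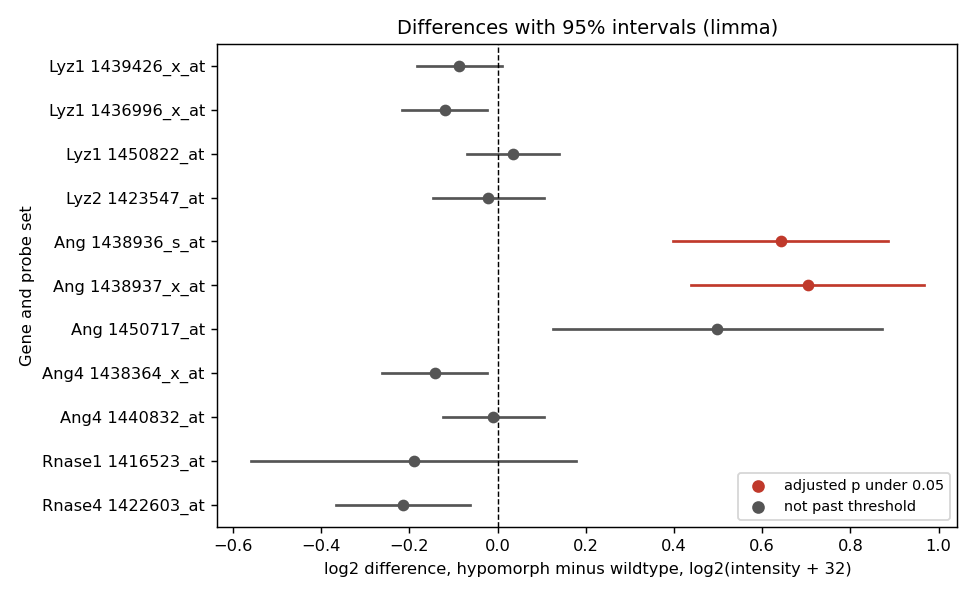
Difference of each probe set, hypomorph minus wildtype, of log2(intensity + 32), with 95% intervals from limma. Red marks the 2 Ang probe sets with an adjusted p under 0.05. The intervals of the 3 Ang probe sets lie above 0, and those of Rnase4 (-0.37 to -0.063), Lyz1 on 1436996_x_at and Ang4 on 1438364_x_at below it, although no lower difference was called after adjustment.

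Ang4, the granule angiogenin, was not called on either of its probe sets. Probe set 1438364_x_at measured 11591 and 12756 in hypomorph and 13272 and 13581 in wildtype. Both hypomorph arrays were lower, at a ratio of means of 0.907, with a difference of -0.14 (SE 0.053, 95% interval -0.26 to -0.023) that did not pass (limma, adjusted p = 0.172). Without hypomorph replicate 2 the difference was -0.21 and passed (limma, adjusted p = 0.0151), again with a lone hypomorph array. On 1440832_at the gene measured 8559 and 8818 in hypomorph and 8580.5 and 8917 in wildtype. Here the groups overlapped and the difference was -0.0099 (SE 0.051, 95% interval -0.12 to 0.10; limma, adjusted p = 0.939), and it turned to 0.013 under quantile normalisation.

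Rnase4, whose transcripts share a start site with those of Ang, measured 3388 and 3551 in hypomorph and 3968 and 4093 in wildtype. Both hypomorph arrays were lower, at a ratio of means of 0.861. The difference was -0.21 (SE 0.068, 95% interval -0.37 to -0.063), and it did not pass (limma, adjusted p = 0.116). With the replicate number as a block it did (adjusted p = 0.0336), as did Ang4 on 1438364_x_at (-0.14, adjusted p = 0.0257) and Ang on 1450717_at (adjusted p = 0.0242). The numbers are not known to pair the arrays.

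Rnase1, the pancreatic-type enzyme, was close to the limit of brightness. It measured 49.4 and 54.9 in hypomorph and 60.4 and 67.7 in wildtype, while a probe set at a mean log2 value of 6.32 was the dimmest kept. Both hypomorph arrays were lower, with a difference of -0.19 (SE 0.17, 95% interval -0.56 to 0.18; limma, adjusted p = 0.557). The interval allows a change of either sign. Pancreatic acinar markers were mostly dim too, with 4 of 13 tested, 0 called higher and 1 called lower. Their summed intensities were 2472 and 2728 in hypomorph against 2379 and 2327 in wildtype. Most of each sum came from Bhlha15 alone, at 1931 and 2219 in hypomorph and 1658 and 1650 in wildtype, which was not called. The tested markers Ctrl and Cela1 differed by -0.30 and -0.050, so the sums do not speak for the list. The marker called was Sycn, a protein of pancreatic granules, at 219 and 176 in hypomorph and 358 and 335 in wildtype (limma, adjusted p = 0.0353), a call that held only when hypomorph replicate 1 was the array left out. The acinar enzyme gene Cpa1 measured 2.72 and 12.9 in hypomorph and 5.81 and 14.1 in wildtype.

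Ratios within an array compare genes read from the same RNA. The log2 ratio of Ang to Rnase4, by the brightest probe set of each, was -0.16 and 0.083 in hypomorph against -0.96 and -0.83 in wildtype. Both hypomorph arrays lay above both wildtype arrays, and the difference of 0.86 amounts to a 1.81-fold change of the ratio. The log2 ratio of Ang to Ang4 was -1.93 and -1.75 in hypomorph against -2.70 and -2.55 in wildtype, a difference of 0.78. High signal may compress the Ang4 values and the Ang probe set can read relatives, so the size of this difference is uncertain. With 2 arrays a group the exact two-sided permutation test over arrays can go no lower than p = 0.333, which both ratios gave, so neither can pass a threshold.

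The remaining 2 of the 4 ratios moved little. That of Lyz1 to Lyz2 was 0.92 and 0.88 in hypomorph and 0.97 and 0.96 in wildtype, a difference of -0.066 (exact permutation p = 0.333, the smallest possible). That of Rnase1 to Rnase4 differed by 0.024 (exact permutation p = 0.667), with a sign that depended on the added constant. None of the 4 ratios could pass a threshold, and a ratio does not say which gene of a pair moved.

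**Figure D3:**
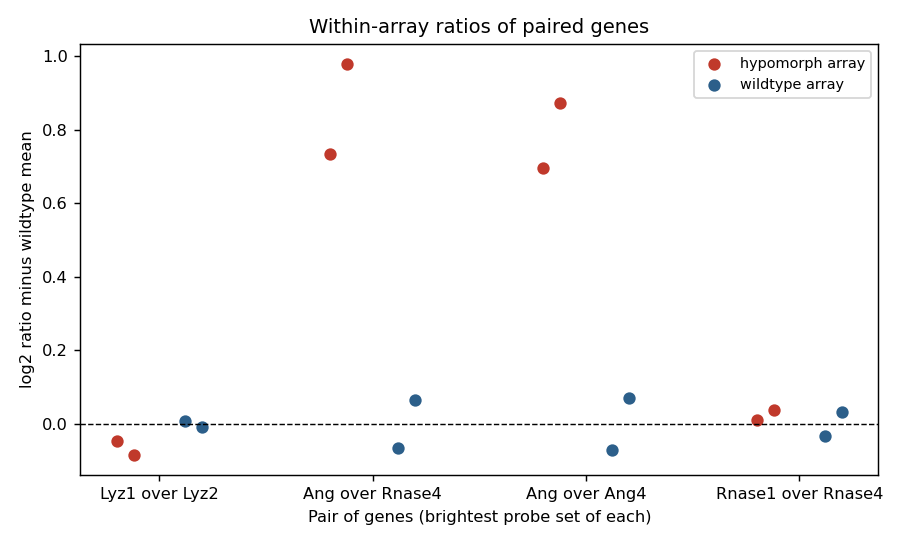
Log2 ratio of paired genes on each array, drawn relative to the mean of the wildtype arrays, with hypomorph arrays in red and wildtype arrays in blue. The hypomorph arrays stand 0.70 to 0.98 above the wildtype mean for the ratios of Ang to Ang4 and Ang to Rnase4, and within 0.085 of it for the other two.

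The genes beside the Ang and Rnase4 locus were read from the RefSeq gene order, taking the 3 nearest tested genes on each side. None of the 6 was called. Pnp, a purine-salvage enzyme gene, differed by 0.18, Apex1, a DNA repair gene, by -0.044, and Pip4p1 by 0.055 on the side before. On the side after, Rnase6, another RNase A family gene, differed by -0.057, Mettl17 by 0.21 and Ndrg2 by 0.28. Beside the lysozyme pair, 1 of 6 genes was called, Cpsf6, a factor of mRNA 3′ end processing, at -0.43 (limma, adjusted p = 0.0439). That call did not hold when replicate 1 of the hypomorph or of the wildtype was left out (adjusted p = 0.125 and 0.204).

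The other genes of these families were mostly dim or had no probe set of their own. Of 22 further RNase A family genes 7 had a probe set of their own and 1 was tested, Rnase6, at 188 and 212 in hypomorph and 198 and 220.1 in wildtype (limma, adjusted p = 0.876). The other angiogenins with a probe set of their own were dim, with Ang2 at 2.56 and 5.36 in hypomorph and 11.8 and 6.09 in wildtype, and Ang3 at 15.1 and 16.3 in hypomorph and 4.08 and 11.5 in wildtype. None of the 8 further lysozyme family genes with a probe set of their own was bright enough to test. Rnh1, the cytosolic inhibitor that binds RNase A enzymes tightly, measured 244 and 288 in hypomorph and 234 and 255 in wildtype and was not called (difference 0.10; limma, adjusted p = 0.747). Plxnb2, reported as a receptor for angiogenin, differed by 0.14 (adjusted p = 0.466), and 0 of 4 tested genes of other ribonucleases were called in either direction.

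Among 12 tested products of Paneth cell granules outside these families, 3 were called higher and 0 lower, beside 2.53% and 1.7% of 11577 tested genes, each by its brightest probe set. Their median difference was 0.086, against -0.024 for all tested genes. Mptx1, a mucosal pentraxin, measured 3841 and 3124 in hypomorph against 1954 and 1912 in wildtype (difference 0.83, SE 0.10; limma, adjusted p = 0.00151) and passed in each fit with an array left out. The lectin gene Reg3a was at 99.2 and 92.7 in hypomorph against 26.9 and 49.4 in wildtype, and Reg3g at 8023 and 8810 in hypomorph against 6983 and 7066 in wildtype. Both were past the threshold (limma, adjusted p = 0.0379 and 0.0453). Reg3a was tested only because it was high in hypomorph, as its wildtype mean alone lay under the brightness limit of 6.32. The count of 3 called higher thus includes a gene that its own rise brought into the test. The call of Reg3a did not hold when replicate 1 of either group was left out (adjusted p = 0.0805 and 0.236), and that of Reg3g did not hold when hypomorph replicate 2 or either wildtype array was left out (adjusted p = 0.0576 to 0.207). Mmp7, Itln1 and Reg3b differed by -0.036, -0.10 and 0.061 and were not called. Probes for Reg3 lectins, too, can read near relatives.

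**Figure D4:**
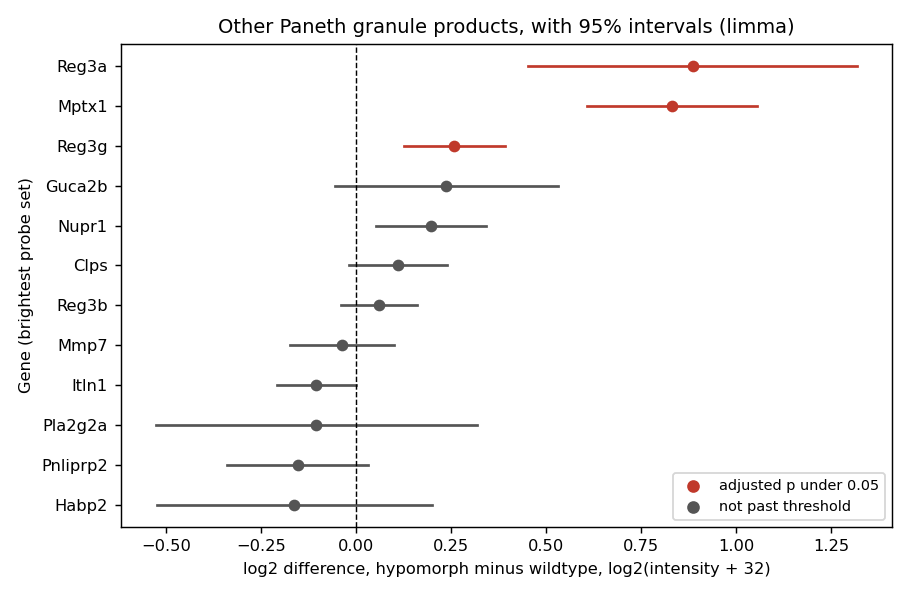
Difference, hypomorph minus wildtype, in log2(intensity + 32) for 12 tested granule genes outside the lysozyme and RNase A families, with 95% intervals from limma. Reg3a, Mptx1 and Reg3g, in red, have an adjusted p under 0.05, and the other 9 lie between -0.16 and 0.24.

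Markers of some other cells, mainly fat cells, enterocytes and fibroblasts, were also called higher in hypomorph. Of all 11577 tested genes, each by its brightest probe set, 2.53% were called higher and 1.7% lower. Of 11 tested fat cell markers, among 16 on the array, 10 were called higher and 0 lower, and their summed intensity was 33915 and 33841 in hypomorph against 10602 and 10713 in wildtype, while Retn, Aqp7, Lipe, Nnat and Cidea were too dim to test. Among the 10 was Adipoq, the fat cell hormone adiponectin, at a difference of 2.37. The tested fat cell marker not called was Pparg, at 235 and 276 in hypomorph and 280 and 284 in wildtype. A rise can itself lift a dim gene past the brightness limit. Cidec (16.9 and 37.9 in wildtype) and Lep (50.6 and 41.6 in wildtype) lay under that limit on their wildtype means alone. The count of 10 thus includes genes that their own rise brought into the test. Of 16 tested enterocyte markers, among 19, 9 were called higher and 0 lower, with sums of 51743 and 53038 in hypomorph against 41107 and 42405 in wildtype, and among the 9 was Fabp1, a fatty acid binding protein, at 2.41. Anpep, Treh and Rbp2 were too dim to test. Lct, among the 9, was likewise under the brightness limit on its wildtype mean alone (36.5 and 37.9 in wildtype). All 14 fibroblast and matrix markers were tested, with 4 called higher and 0 lower and sums of 43318 and 44504 in hypomorph against 38132 and 38881 in wildtype. The 4 were the collagen genes Col1a1 (0.86) and Col1a2 (0.26), Mgp (0.61) and Sparc (0.33), and of these Col1a1 alone passed in each fit with an array left out, while Mgp, Sparc and Col1a2 each failed without hypomorph replicate 2 and at least 1 other array. Endothelial markers had 0 calls in either direction among 9 tested of 12 (Emcn, Pecam1 and Tie1 were too dim), and sums of 6581 and 6278 in hypomorph against 5562 and 5146 in wildtype. Of 7 tested hepatocyte markers, among 14, 1 was called higher, the cytochrome gene Cyp2e1 at 2.61, and 1 lower, the transport protein gene Ttr at -0.82. Alb, the defining gene, was too dim to test. The hepatocyte sums were 11450.3 and 12470.5 in hypomorph against 11943 and 11697 in wildtype. Most of each came from Cps1 alone, at 7762 and 8402 in hypomorph and 9281 and 9175 in wildtype, so these sums do not speak for the list. Goblet cell markers, 11 of 11 tested, had 0 calls in either direction and sums of 49082 and 50452 in hypomorph against 49837 and 51912 in wildtype. Their median difference was -0.085. Muc2, Agr2 and Spdef differed by -0.18, -0.23 and -0.42, and Zg16, Spink4 and Clca1 by 0.092, 0.088 and 0.27. The goblet sums therefore do not speak for the list either. The part of any of these cells in the Ang values was not tested.

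The genes nearest to each of the 6 in pattern were taken by the Euclidean distance between log2 values centred on their own mean over the 4 arrays, among 11571 genes. Closest to Ang were Slc9a3r1, which encodes a scaffold protein of the apical membrane, at a distance of 0.068, Cd1d1, which presents lipid antigens, at 0.073, and Abcc10, a membrane transporter, at 0.079. Slc9a3r1 measured 2994 and 3633 in hypomorph against 2083 and 2249 in wildtype and was called higher (difference 0.60; limma, adjusted p = 0.0103), whereas Cd1d1 and Abcc10 were not (adjusted p = 0.0579 and 0.066). Closest to Lyz1 were the ribosomal protein genes Rps4x and Rpl10a, and Gmfb, with differences of -0.092, -0.079 and -0.095. Closest to Ang4 were Rhno1, Rpsa and Slc25a3, at -0.14, -0.14 and -0.15, and closest to Rnase4 were Ptprd, Lzts2 and Parp3, at -0.21, -0.23 and -0.21. Id4 was closest to Lyz2 and Ddx11 to Rnase1. With 4 arrays such likeness rests mainly on the group difference and its size.

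**Figure D5:**
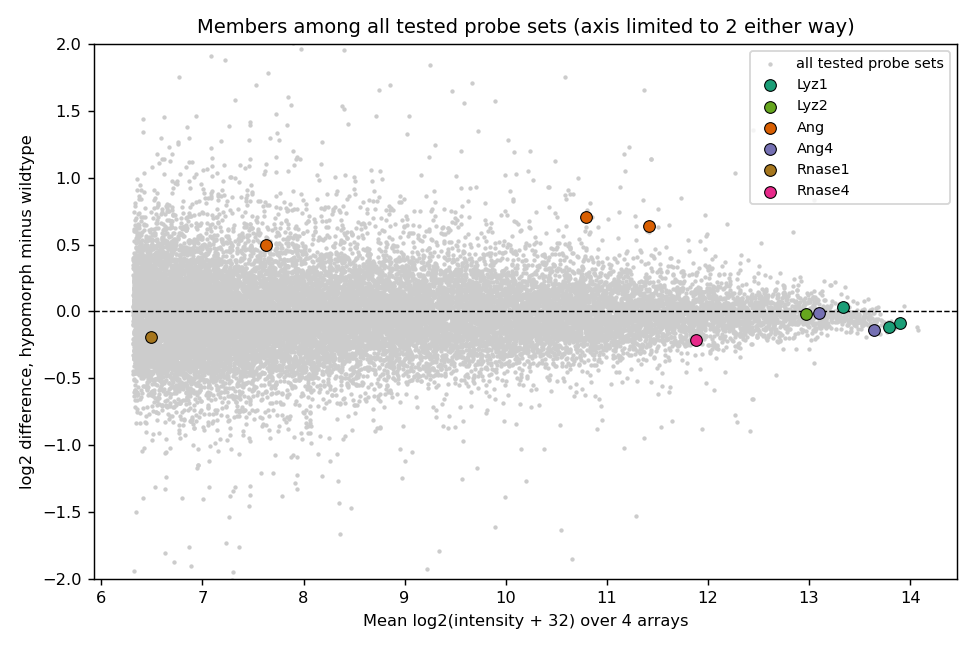
Difference, hypomorph minus wildtype, against the mean log2(intensity + 32) over 4 arrays for 22519 tested probe sets in grey, with the 11 lysozyme and ribonuclease probe sets in colour. Lyz1, Lyz2 and Ang4 sit at the bright end near 0, the 3 Ang points lie at 0.50 to 0.70, and 41 grey points fall outside the drawn range of 2 either way.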

How the data were processed

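Laser-captured mouse Paneth cells were profiled on 4 one-colour arrays, 2 Atg16-hypomorph and 2 wildtype, grouped by their titles. The authors deposited 1 linear intensity per probe set and array. The sources used here do not say how background was corrected, arrays were scaled or detection was called. Array means with 2% trimmed off each tail differed by at most 1.02-fold between arrays, so the values were not normalised again.

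Names came from the platform annotation table. The 64 control probe sets were left out, and of 45037 others 34945 had 1 symbol, 932 several and 9160 none. Values were tested as log2(intensity + 32) with limma 3.58.1 in R 4.3.3, using lmFit and an intensity-trended eBayes (2 residual and 7.81 prior degrees of freedom). Probe sets with a mean log2 value under the median (6.32) were left out, which kept 22519. Most of the precision comes from spread shared across probe sets, and the number of arrays limits it. A gene on a list was represented by its brightest probe set with 1 symbol. A list gene was counted as on the array only if it had such a probe set. Up to 4 called genes per list, otherwise up to 2, and the 3 genes nearest to each member in pattern were to be named; further ones were named after their values were seen. Promoter windows came from RefSeq, and the procedure was tested on simulated data. It recovered 17.9% of simulated log2 differences of 0.5, 82.1% of those of 1 and 100% of those of 2. A probe set that was not called may therefore still have changed. The genes and lists were chosen with earlier results of these data known. The 13 alternatives covered scaling, the added constant, the filter, the prior, a replicate block and each array left out, with a lone array taken to vary as the other group does.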

Additional observations from a re-analysis of the deposited data

How the results depend on the processing

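With 13 alternatives, the 2 Ang calls were kept in 11, and their differences stayed between 0.49 and 0.88. The number of the 11 probe sets called higher was 0 with no filter on dim probe sets and 0 with no intensity trend. The number called lower was 2 with the replicate block, and between 0 and 2 when an array was left out, with 2 only without hypomorph replicate 2. Over all probe sets, 183 were called higher and 120 lower with no filter, 192 and 131 with no intensity trend, and 244 lower with only the brightest 25% tested. With an array left out the counts ranged from 317 to 706 higher and 178 to 942 lower, where 459 and 377 were called with all arrays. The share of calls that were higher was 54.9% with all arrays and 52.1% to 59.1% under median centring and quantile normalisation, but 42.8% without hypomorph replicate 2, 46.4% with the replicate block and 65.7% without wildtype replicate 1, so the balance of directions turned with the arrays used.

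With the replicate number as a block, which leaves 1 residual degree of freedom, 1489 were called higher and 1717 lower. The deviations of same-numbered arrays correlated at 0.26 across probe sets. The labels give no shared litter or day, so whether same-numbered arrays share more than a number is not known.

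Of 141 values of single probe sets under alternatives, 127 kept sign and side of the threshold, 5 newly passed it, 4 lost it and 5 turned sign. The last were Ang4 on 1440832_at at 0.013 under quantile normalisation, 0.012 without hypomorph replicate 1 and 0.018 without wildtype replicate 2 (from -0.038 to 0.018 with an array left out), and Lyz2 at 0.024 and 0.012 without those same arrays (from -0.067 to 0.024). The ratio of Rnase1 to Rnase4 was -0.074 with an added constant of 1, and ranged from -0.0083 to 0.057 with an array left out. The other ratios kept their sign, that of Ang to Rnase4 between 0.73 and 0.98. Leaving arrays out of the ratios was chosen after seeing the data. The cause of these changes was not tested. With no filter the number of tests rose to 45037, and the prior degrees of freedom also fell, from 7.81 to 5.04. With only the brightest 25% tested, Rnase1 and Ang on 1450717_at had no value. Dimness limits Rnase1 and the third Ang probe set, and compression at high signal may limit Lyz1 and Ang4.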
